A study of Mus musculus with 2 samples.

Results

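C1q macrophages of the mouse liver were described here in 2 single-cell RNA libraries, where they numbered 939 of 34080 barcodes, with 34 in the control library and 905 in the library from livers with MC38 tumors. They were chosen on raw counts of unique molecular identifiers (UMIs, each standing for 1 captured RNA molecule). A barcode had at least 200 genes and at most 20% mitochondrial UMIs, at least 5 UMIs of C1qa, C1qb and C1qc together, at least 20 of Lyz2 and at least 1 of Csf1r. It had none of the Kupffer cell genes Clec4f, Vsig4 and Timd4, at most 4 UMIs each of Arg1, Spp1 and Cxcl10, and at most 1 of Cd3d, Cd3e and Cd3g together. The values of these genes made the class and are given as a description with no test.

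Both libraries held liver immune cells of C57BL/6 mice at day 14, separated by density centrifugation after hepatocytes had been depleted by slow spins, and were made with the 10x Genomics 5′ kit. Each pooled 3 mice. The control mice had PBS in place of tumor cells injected into the spleen and are labelled as having no tumor. The MC38 mice had MC38 cells, a colon carcinoma line of the same mouse strain, injected into the spleen. The protocol text shared by both groups also gives removal of the spleen. It lists 500000 MC38 cells injected into the spleen and 3000000 MC38 cells under the skin, and does not say which steps the control mice had. In a contrast of the libraries, tumor cells delivered through the spleen therefore cannot be told apart from these other steps. With 1 library per group no difference has a replicate check: no p-value is given, intervals cover counting error only, and a difference between libraries cannot be told apart from one between these 2 preparations.

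C1q is the recognition part of the classical complement pathway. It is built from the chains encoded by C1qa, C1qb and C1qc and is made mainly by macrophages, in which it also helps the uptake of dying cells. Trem2 is a lipid-sensing receptor of the macrophage surface that signals through Tyrobp and marks lipid-associated macrophages in obese tissue, fatty liver and tumors. In the liver the resident macrophages are Kupffer cells, and monocytes that enter from the blood can become macrophages through intermediate states. Origin is not recorded by these counts, so the word monocyte in the working name of the class was not tested.

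The 3 C1q genes lie side by side on the minus strand of chromosome 4 (GRCm38.p6, C1qb at 136880129 to 136886187, C1qc at 136889804 to 136893065 and C1qa at 136895917 to 136898803), and Trem2 lies on the plus strand of chromosome 17 (48346401 to 48354147). Start windows were found in the RefSeq table of this build for 3 of these 4 marker genes. The 250 bases before the start of C1qb, a chain that defines the class, and of Trem2, the marker that did not follow C1q among the cells below, are printed 5′ to 3′ on the strand of the gene, from chr4:136886201-136886450 and chr17:48346151-48346400. Capitals mark matches, on either strand, to the ETS core AGGAAGT and the Maf core TGCTGA, motifs of factor families that act in macrophages.
C1qb: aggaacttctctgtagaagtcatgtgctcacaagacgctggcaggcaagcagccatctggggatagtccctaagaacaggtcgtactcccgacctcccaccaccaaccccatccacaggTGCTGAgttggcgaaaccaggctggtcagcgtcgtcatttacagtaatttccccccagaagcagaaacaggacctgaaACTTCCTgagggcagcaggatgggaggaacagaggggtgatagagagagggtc
Trem2: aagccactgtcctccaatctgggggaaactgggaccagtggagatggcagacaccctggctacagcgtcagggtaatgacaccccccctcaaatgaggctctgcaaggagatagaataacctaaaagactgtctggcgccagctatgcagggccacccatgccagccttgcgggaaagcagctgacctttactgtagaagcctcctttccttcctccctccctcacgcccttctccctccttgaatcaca
In the C1qb window ACTTCCT, the ETS core read on the other strand, stood at -53 to -47 and TGCTGA at -131 to -126, counted back from the annotated start. The Trem2 window held neither, and neither window held the interferon response element consensus. Of 32851 start windows of the same length, 7.69% held the ETS core, 16.1% the Maf core and 2.98% the interferon response element. A match is a run of letters, not a site of binding.

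The C1q macrophages were 0.42% of the 8086 control barcodes within the gene and mitochondrial limits (34, exact 95% interval 0.291 to 0.587%) and 5.22% of the 17338 MC38 barcodes (905, 4.89 to 5.56%). Among barcodes with at least 20 UMIs of Lyz2 and 1 of Csf1r, genes of the monocyte and macrophage line, they were 2.12% of 1606 (1.47 to 2.95%) and 17.9% of 5049 (16.9 to 19.0%). The intervals did not overlap on either base. Of T cells, which should lack C1q, 2.88% in control and 7.34% in MC38 also reached 5 C1q UMIs. The part of such stray C1q in these shares was not tested. A share of barcodes cannot separate more cells of the class from fewer of the others. The mitochondrial limit removed 6059 control and 2229 MC38 barcodes, and the T cell limit removed 39 of the last 73 control and 137 of the last 1042 MC38 candidates. With the mitochondrial limit at 10%, 16 control and 842 MC38 cells were left.

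Control C1q macrophages had a median of 9846.5 UMIs and 2767.5 genes, and MC38 ones 11885 UMIs and 3192 genes. The median mitochondrial share was 10.2% and 5.28%, against 10.8% and 6.2% over all barcodes within limits. In sum the 34 control cells gave 352718 UMIs and the 905 MC38 cells 11430430, so the control side set the precision of every contrast between libraries. Scrublet called 2 of the 34 and 89 of the 905 as doublets (5.88% and 9.83%), close to the shares over all barcodes within limits (4.46% and 8.8%), and these were kept. The libraries shared 63 barcode sequences, of which 3 belonged to MC38 C1q macrophages and 0 to control ones.

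Levels are given in CPM: the UMIs a gene had over all cells of a class in a library, relative to every UMI of those cells. Beside the C1q macrophages stand rule-defined classes from the same libraries. Classical monocytes met every condition except that C1q was 0 and Ly6c2 at least 3 (607 control and 1782 MC38 cells). Kupffer cells had at least 5 C1q UMIs, at least 1 of Csf1r and at least 2 of Clec4f, Vsig4 and Timd4 (203 and 358 cells). They also met the T cell limit but had no limit on Lyz2, Arg1, Spp1 or Cxcl10. Arg1-high macrophages had at least 5 UMIs of Arg1 and met the limits on Lyz2, Csf1r, the Kupffer cell genes and the T cell genes, whatever their C1q (456 MC38 cells and 1 control cell, which was not compared), and 41.0% of them were called doublets. The Kupffer cells were shallow, with medians of 2348 and 3269.5 UMIs.

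Per cell, the summed C1q count of the control C1q macrophages had a median of 16 UMIs (5 to 133), and that of the MC38 ones a median of 24 (5 to 475). Set on each cell's own total, the medians were 18.5 and 21.0 C1q UMIs per 10000, and the ranges overlapped. The control cells reached higher in their upper part, with a 75th percentile of 103 against 44.6, a 95th of 205 against 104 and a mean of 60.3 against 33.4. Kupffer cells had higher medians, at 111 and 98.0. C1q UMIs also appeared in cells that should lack them: 18.3% of control and 33.1% of MC38 T cells had at least 1, and summed C1q reached 70.2 and 191 CPM there, against 3618 and 3178 CPM in the C1q macrophages. The 5 C1q UMIs that the rule asks for were reached by 2.88% of control and 7.34% of MC38 T cells. For B cells these shares were 0.336% and 1.71%. At the lower end of the rule, 71 MC38 cells had 5 or 6 C1q UMIs, and 123 with 3 or 4 met every other condition. Apoe stood at 4917 CPM just outside and 4644 CPM just inside, and Ly6c2 at 1144 and 879 CPM, less than 1.5-fold apart, while H2-Ab1, a class II gene, stepped from 629 to 1088 CPM. The plot of C1q per cell shows this spread.

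**Figure D1:**
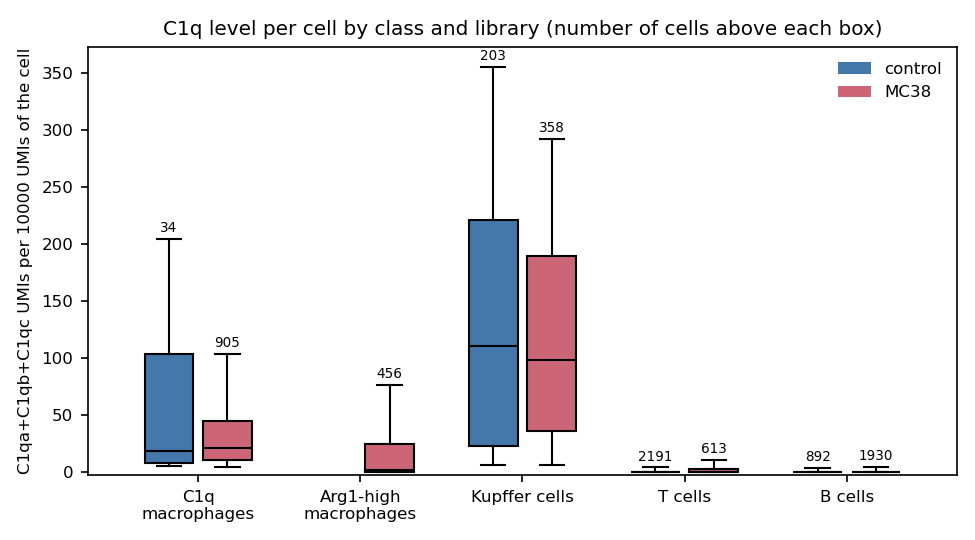
C1qa, C1qb and C1qc UMIs per 10000 UMIs of the cell (vertical axis) by class and library. Boxes span the 25th to the 75th percentile with the median as a line, whiskers the 5th to the 95th percentile, and the number above each box counts its cells. The control and MC38 C1q macrophages have medians of 18.5 and 21.0, below the Kupffer cells at 111 and 98.0.

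Each chain was also summed by itself. C1qa stood at 1273 CPM in control and 931 CPM in MC38 C1q macrophages, C1qb at 1469 and 1772, and C1qc at 876 and 475. C1qb was thus higher and C1qa and C1qc lower in the MC38 cells. In Kupffer cells C1qa reached 2333 and 2819 CPM, C1qb 1841 and 2521, and C1qc 1380.4 and 1647. At least 1 UMI of C1qb was present in every control and 99.9% of MC38 C1q macrophages, of C1qa in 82.4% and 77.5%, and of C1qc in 97.1% and 89.8%.

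Trem2 was the named marker that the rule did not use. In the control C1q macrophages it gave 25 UMIs, 70.9 CPM, and was seen in 35.3% of cells. In the MC38 ones it gave 3368 UMIs, 295 CPM, and was seen in 86.2% of cells. The log2 ratio of MC38 to control was 2.06 (95% interval 1.49 to 2.69). Classical monocytes, which had no C1q, showed 78.9 CPM in control and 263 CPM in MC38, Kupffer cells 38.7 and 189, and MC38 Arg1-high macrophages 248. In MC38, Trem2 was therefore within 1.5-fold of the level in monocytes and Arg1-high macrophages, with log2 ratios of 0.16 (95% interval 0.10 to 0.22) and 0.25 (95% interval 0.17 to 0.34). After each cell had been thinned to 3000 UMIs, 53.6% (exact 95% interval 50.2 to 56.9) of MC38 C1q macrophages and 50.6% (exact 95% interval 48.3 to 53) of MC38 classical monocytes kept a Trem2 UMI, against 1.49% of B cells. In the control library the thinned shares were 21.9% (exact 95% interval 9.28 to 40) and 19% (exact 95% interval 15.9 to 22.3). The marker Trem2 therefore did not set the class apart from monocytes in either library, and most control cells of the class showed none.

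Some other genes differed more from classical monocytes. Apoe, the lipid carrier that binds Trem2, stood at 8865 CPM in control and 7030.1 CPM in MC38 C1q macrophages, against 1425 and 3586 CPM in classical monocytes and 4675 and 8054 CPM in Kupffer cells. A single control cell held 21.8% of the control Apoe UMIs. C3ar1, the receptor for the complement fragment C3a, was at 96.4 and 133 CPM in the class and 1.98 and 56.3 CPM in monocytes. MC38 Kupffer cells had 121 CPM and Arg1-high macrophages 173 CPM, so C3ar1 did not mark the class off from these. Ccr2, the chemokine receptor by which monocytes leave the marrow, was seen in 79.4% of control and 98.1% of MC38 C1q macrophages at 902 and 1399 CPM, with 3.37% of MC38 B cells carrying it after thinning against 93.1% of the class. Ccr2 did not mark the class off from classical monocytes, which had 1192 and 1479.9 CPM. The monocyte surface gene Ly6c2 was lower in the class, at 215 and 662 CPM, than in monocytes at 1387 and 1429 CPM, which Ly6c2 itself had helped to choose. The Kupffer genes Cd5l and Marco, which the rule did not use, were at 48.2 and 17 CPM in the control cells and 6.04 and 3.32 CPM in the MC38 cells. In MC38 Kupffer cells they stood at 2279.8 and 2332 CPM.

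**Figure D2:**
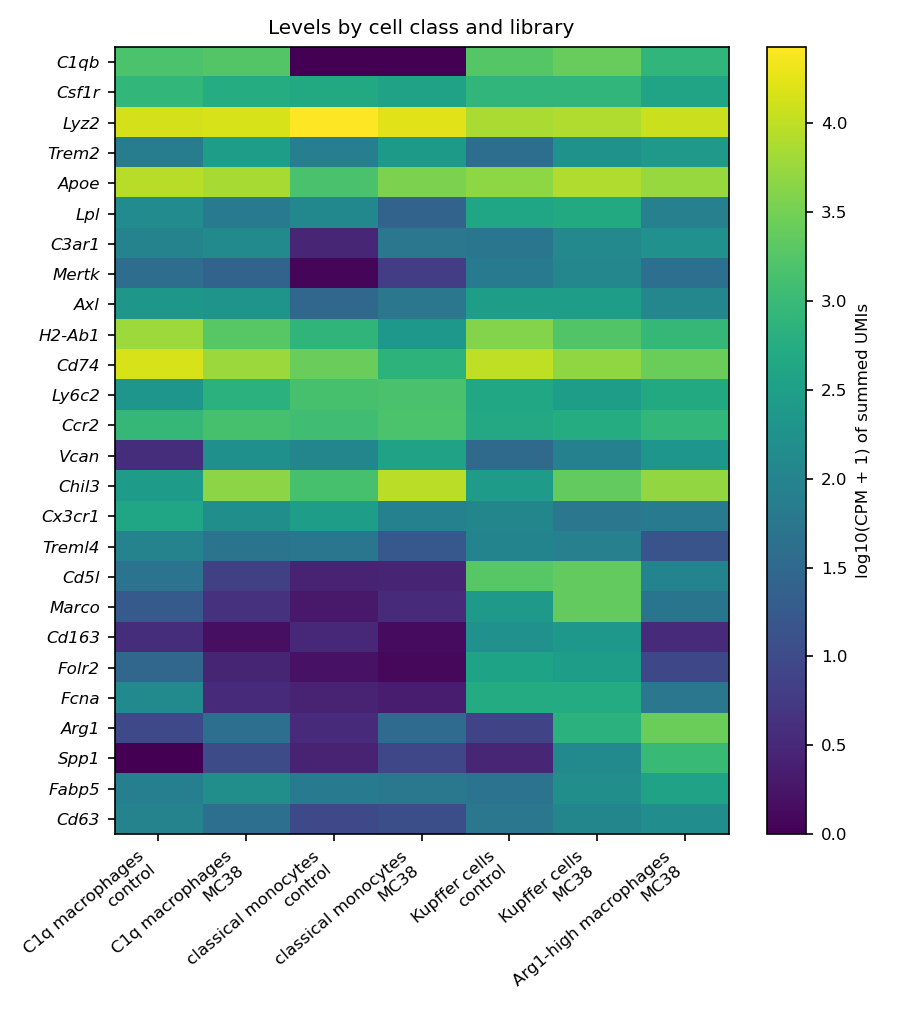
Levels as log10 of CPM + 1 (color) of named genes (rows) in 4 cell classes of the control and MC38 libraries (columns, Arg1-high macrophages in MC38 only). C1qb is 0 in classical monocytes because the rule for that class asks for no C1q. Trem2 has nearly the same color in all MC38 columns, while Cd5l, Marco, Cd163 and Folr2 are bright in the Kupffer cell columns and dark in the MC38 C1q macrophages.

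C1q macrophages of the 2 libraries were compared over 8988 genes with at least 50 UMIs. MC38 cells were at least 2-fold above control in 939 genes (10.4%) and at least 2-fold below in 699 (7.78%). When the 95% counting interval of the ratio also had to leave out equality, a rule added after the values were seen, these shares were 4.63% and 5.04%. In the MC38 cells the classical monocyte genes, the matrix genes and the glycolysis genes stood higher, while the interferon-induced genes, the class II presentation genes and the markers of nonclassical monocytes stood lower. The median log2 ratio over all genes tested was 0.01. A word such as higher or lower of a single gene below means at least 2-fold unless a value is given alone.

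Markers of classical monocytes, the inflammatory Ly6C-high cells of blood, were higher in the MC38 C1q macrophages for 9 of 11 genes and lower for 0, with a median log2 ratio of 1.59. Their summed level was 6059 CPM in control and 12990.0 CPM in MC38. Chil3, a chitinase-like protein of myeloid cells, went from 281 CPM in control to 4582 CPM in MC38, a log2 ratio of 4.03 (95% interval 3.74 to 4.33), with 49 of its 99 control UMIs in 1 cell. Vcan, the proteoglycan versican, gave 1 UMI in control and 168 CPM in MC38, a log2 ratio of 5.89 (95% interval 3.41 to 11.19). Hp, haptoglobin, an acute-phase gene that hepatocytes also make, was at 87.9 and 486 CPM, and at 10.8 and 137 CPM in B cells. Hepatocyte markers moved with it in the class, with 8 of 10 higher and 0 lower and sums of 405 and 687 CPM, while albumin, Alb, was at 113 and 85.2 CPM, and their part in Hp was not tested. The exceptions were Ccr2, whose log2 ratio was 0.63, and Plac8, at 2883 CPM in control and 1704 CPM in MC38. Classical monocytes themselves changed in Chil3 from 1369.6 to 9249.7 CPM and in Vcan from 108 to 349 CPM, so both genes were also higher outside the class.

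Markers of nonclassical monocytes, the patrolling cells of the vessel wall, were lower in MC38 for 6 of 9 genes and higher for 0, and their sum was 1213 CPM in control and 469 CPM in MC38. Nr4a1, the nuclear receptor these monocytes depend on, was at 142 and 37.4 CPM, with a log2 ratio of -1.92 (95% interval -2.35 to -1.47). Ace was at 156 and 31.8 CPM, and Adgre4 at 136 and 34.2 CPM. Cx3cr1, the fractalkine receptor, is not in this list. It was at 394 CPM in 76.5% of control cells and 158 CPM in 56.7% of MC38 cells, a log2 ratio of -1.32 (95% interval -1.57 to -1.06). Classical monocytes had the same order in these genes, with Ace at 80.3 and 5.56 CPM and Cx3cr1 at 295 and 88.2 CPM, so this difference too was seen outside the class.

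Kupffer cell markers outside the rule were lower in MC38 for 5 of the 8 with enough UMIs and higher for 0, with sums of 683 and 352 CPM. Fcna, a ficolin of liver macrophages, had 45 control UMIs in 5 cells, 28 of them in 1 cell, and was at 128 CPM against 2.36 CPM in MC38. Cd207, langerin, was at 73.7 and 0.612 CPM with 15 of 26 control UMIs in 1 cell. The wider list of tissue macrophage identity genes was lower for 6 of 13 and higher for 1. In it Mrc1, the mannose receptor, was at 65.2 and 12.9 CPM, a log2 ratio of -2.34 (95% interval -2.98 to -1.64), and the transcription factor Maf at 162 and 39.2 CPM. Cadm1, an adhesion molecule, was seen in 29.4% of control and 0.994% of MC38 cells at 73.7 and 2.45 CPM. F13a1, coagulation factor XIII of monocytes, was the member that was higher, at 133 and 309 CPM.

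Genes induced by type I interferon, the antiviral cytokines, were lower in MC38 for 12 of 19 and higher for 0, with a median log2 ratio of -1.43. Their summed level was 2923 CPM in control and 1097 CPM in MC38. Irf7, the factor that amplifies the response, was at 159 CPM in control and 46.3 CPM in MC38, a log2 ratio of -1.78 (95% interval -2.18 to -1.35). Ifi27l2a was at 1355 and 321 CPM, Ifit3 at 39.7 and 4.37 CPM, and Ifit1 at 36.9 and 4.37 CPM, the latter from 13 control UMIs in 8 cells. Zbp1, a sensor of viral nucleic acid, was within 2-fold, at 113 and 122 CPM. Irf7 was lower in MC38 classical monocytes too, at 171 CPM in control and 36.3 CPM in MC38, and so was Ifi27l2a, at 1533 and 255 CPM. In T cells Ifi27l2a was at 539 and 243 CPM, and Irf7, at 49.9 and 28.6 CPM, was within 2-fold. The list was not counted in those classes. Interferon gamma response genes did not share this: 2 of 18 were higher and 0 lower. The higher ones were the guanylate-binding protein gene Gbp7, at 28.4 and 124 CPM, and Cxcl9, a T cell attracting chemokine, at 48.2 and 163 CPM. Cxcl9 was seen in 14.7% of control and 8.4% of MC38 cells, with 10 of its 17 control UMIs in 1 cell.

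Class II presentation genes, which display peptides to CD4 T cells, were lower in MC38 for 7 of 14 and higher for 1, with a median log2 ratio of -0.96. H2-Ab1 was at 5937 CPM in control, in 97.1% of cells, and 1874 CPM in MC38, in 70.4% of cells, a log2 ratio of -1.66 (95% interval -1.73 to -1.60). H2-Eb1 was at 4964 and 1247 CPM, and the invariant chain gene Cd74 at 14717 and 5708 CPM. Ciita, the master regulator of the set, was at 133 and 84 CPM, a log2 ratio of -0.67. Ifi30, a lysosomal thiol reductase, was the gene that was higher, at 737 and 1703 CPM. B cell markers moved with this group, with 7 of 8 lower and 0 higher. Their sum was 431 CPM in control and 112 CPM in MC38, and that of plasmacytoid dendritic cell markers was 488 and 197 CPM. All 22 control UMIs of the B cell gene Ms4a1 came from 1 cell. Conventional dendritic cell markers stood at 258 and 111 CPM. Without the cells that carried at least 2 UMIs of B cell, NK cell or dendritic cell markers, which left 24 control and 831 MC38 cells, the log2 ratio of H2-Ab1 was -1.78 and the median of the list -0.82. MC38 classical monocytes had less H2-Ab1 as well, 225 CPM against 784 CPM in control.

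Matrix remodeling genes were higher in MC38 for 7 of 12 and lower for 2, with a median log2 ratio of 1.51 and sums of 1568 and 4288 CPM. Some of the higher ones are counted in other lists too. Vcan and Fn1 are also classical monocyte markers, Mmp8 a neutrophil marker and Tgfbi an anti-inflammatory list gene. Tgfbi, a matrix adhesion protein induced by TGF-beta, was at 530.2 CPM in control and 1844 CPM in MC38, a log2 ratio of 1.80 (95% interval 1.59 to 2.01). Fn1, fibronectin, was at 638 and 1489.6 CPM, and Ecm1 at 56.7 and 281 CPM. Ecm1 also stands among the stellate and fibroblast markers, whose sum was 62.4 and 293 CPM with 1 of 2 higher and 0 lower, and it made up most of that sum. Of that list Col1a1 and Col3a1 had 0 control UMIs and were at 0.437 and 0.787 CPM in MC38. Thbs1, thrombospondin, rested on 2 control UMIs, with 116 CPM in MC38 and a log2 ratio of 4.35 (95% interval 2.50 to 7.40). Timp2, an inhibitor of matrix proteases, and Pdgfb were the lower ones, at 142 and 43.5 CPM and at 36.9 and 10.7 CPM. Mmp8, a neutrophil collagenase, gave 1 control UMI and 128 CPM in MC38. Neutrophil markers stood in sum at 96.4 CPM in control and 1071 CPM in MC38, and S100a8 stood at 5.67 and 609 CPM in the class and at 3.31 and 161 CPM in B cells. Whether free RNA had a part in Mmp8 or in Lcn2, lipocalin 2, at 0 UMIs and 225 CPM, was not tested. Hemoglobin gene Hbb-bs moved the same way, at 17 and 493 CPM in the class and 2347 and 6989 CPM in B cells.

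Glycolysis and hypoxia genes were higher for 9 of 20 and lower for 0, with a median log2 ratio of 0.96 and sums of 2974 and 6013 CPM. Pkm, pyruvate kinase, was at 346 and 893 CPM, a log2 ratio of 1.37 (95% interval 1.11 to 1.64), and Pgam1, phosphoglycerate mutase, at 128 and 363 CPM, a log2 ratio of 1.51 (95% interval 1.09 to 1.97). Slc2a1, the glucose transporter GLUT1, had 4 control UMIs and was at 11.3 and 43 CPM. Hk2, hexokinase 2, was at 99.2 and 63.3 CPM, within 2-fold in the other direction. MC38 classical monocytes had 1038 CPM of Pkm against 552 CPM in control.

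Of the anti-inflammatory and checkpoint genes 6 of 14 were higher in MC38 and 0 lower. Havcr2, the receptor TIM-3, was at 25.5 and 80 CPM, a log2 ratio of 1.65 (95% interval 0.72 to 2.78). Il4ra, the interleukin 4 receptor, was at 65.2 and 139.9 CPM, and Lilrb4a, an inhibitory receptor, at 90.7 and 201 CPM. Il1r2, a decoy receptor of interleukin 1, had 0 control UMIs and 43.9 CPM in MC38. Its log2 ratio was 2.37 with the floor of 3 UMIs over the control cells (95% interval from 2.06 up). Cd274, which encodes PD-L1, was at 17 and 14.4 CPM, with a log2 ratio of -0.24 (95% interval -1.39 to 1.23). Inflammatory cytokine and NF-kB genes were mixed, with 3 of 14 higher and 4 lower. Il1rn, the interleukin 1 receptor antagonist, was at 111 and 10.8 CPM with 25 of 39 control UMIs in 1 cell. Ccl5 was at 530.2 and 119.9 CPM, 72 of 187 control UMIs were in 1 cell, and its log2 ratio of -2.14 became -0.18 with the mitochondrial limit at 10%. Il1b was at 309 and 158 CPM.

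Trem2 and lipid-associated genes did not move together, with 4 of 20 higher, 4 lower and a median log2 ratio of 0.17. Lgals3, galectin 3, was at 819 and 2257 CPM, a log2 ratio of 1.46 (95% interval 1.29 to 1.63), and Plin2, a lipid droplet coat protein, at 156 and 393 CPM. Lower were Cd36, the fatty acid transporter, at 65.2 and 3.06 CPM, and Lpl, lipoprotein lipase, at 136 and 67.6 CPM. Cd63, at 93.6 and 41.2 CPM, had 17 of its 33 control UMIs in 1 cell, and its log2 ratio of -1.18 turned to 0.59 with the mitochondrial limit at 10%. Apoe had a log2 ratio of -0.33. Among other complement genes and receptors 2 of 12 were higher and 3 lower. C5ar1, the receptor for C5a, was at 42.5 and 91.4 CPM, and Itgax, a chain of complement receptor 4, at 108 and 42.9 CPM. C4b was at 73.7 and 8.84 CPM, with 17 of 26 control UMIs in 1 cell, and its log2 ratio of -3.06 became 1.56 when called doublets were removed.

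Several groups held few or no genes past 2-fold. Lysosome and cathepsin genes had 0 of 19 higher and 0 lower, with Ctsd at 284 and 484 CPM and Ctsb at 1168 and 656 CPM, both proteases. Fc gamma receptor genes had 0 of 8 higher and 0 lower, with Fcgr3 at 366 and 642 CPM. Of the genes for engulfment of dying cells 1 of 12, Cd36, was lower and 0 higher. There the receptor Axl was at 224 and 195 CPM, Mertk at 36.9 and 24.6 CPM, and Lrp1 at 292 and 431 CPM. Cell cycle genes had 1 of 15 higher and 1 lower. Iron and heme genes had 2 of 13 higher and 1 lower, with ferritin light chain Ftl1 at 4609.9 and 6686 CPM and the iron exporter Slc40a1 at 22.7 and 7.17 CPM.

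The remaining lists were small or mixed. Of the chemokine and monocyte traffic genes 3 of 16 were higher and 2 lower, with Ccr1, a receptor of inflammatory chemokines, at 22.7 and 189.7 CPM, a log2 ratio of 3.06 (95% interval 2.08 to 4.28), and Pf4, platelet factor 4, at 142 and 20.4 CPM. Immediate-early and heat shock genes had 2 of 20 higher and 5 lower. Of these Ier3 was at 5.67 and 166 CPM, from 2 control UMIs, and the heat shock gene Hspa1b at 48.2 and 11.1 CPM. For Hspa1b 8 of 17 control UMIs were in 1 cell.

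Among genes that passed the minimum of cells, the guard against free RNA and the exclusion of other lineages' markers, ranked by the end of the counting interval nearest equality, the highest in MC38 over control C1q macrophages were Spint1, Chil3, Vcan, Htra3, Ier3, Thbs1, Cd300lf, Ocstamp, Ccr1, Hp, Fkbp5 and Spink2. Lcn2 and Il1r2 would have ranked among these but did not pass the guard, since neutrophils had more than 10 times their level. Mmp8 would have ranked there too but was left out as a listed neutrophil marker. Spint1, a membrane inhibitor of serine proteases, gave 1 control UMI and 248 CPM in MC38, in 85.6% of cells, a log2 ratio of 6.45 (95% interval 3.97 to 11.75). It was at 2.3 CPM in control and 250.4 CPM in MC38 classical monocytes, and at 3.5 CPM in MC38 B cells. Htra3, a secreted serine protease, had 0 control UMIs and 97.2 CPM in MC38, a log2 ratio of 3.51 with the floor of 3 control UMIs (95% interval from 3.21 up). It stood above the MC38 classical monocytes (23.8 CPM), with a log2 ratio of 2.03 (95% interval 1.88 to 2.19) there. Ocstamp, a gene of macrophage fusion, also had 0 control UMIs, at 49 CPM in MC38 against 15.3 CPM in monocytes. Fkbp5, a target of the glucocorticoid receptor, was at 5.67 and 75.9 CPM, and Cd300lf, an inhibitory receptor, at 11.3 and 140.2 CPM.

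The genes lowest in MC38 by the same ranking were Cd207, Ifi44, Fcna, Tanc2, Cadm1, St8sia6, Lilra5, Cd36, Hpgds, Il1rn, Adgb and Sesn3. Lilra5, an activating receptor of monocytes, was seen in 38.2% of control and 5.19% of MC38 cells, at 99.2 and 4.99 CPM, a log2 ratio of -4.31 (95% interval -4.95 to -3.66). Hpgds, the hematopoietic prostaglandin D synthase, was at 59.5 and 4.11 CPM. Ifi44, Tanc2, St8sia6, Adgb and Cd207 had fewer than 50 UMIs over both libraries and so are not among the 8988 genes. Tanc2 rested on 9 control UMIs, 5 of them in 1 cell, and Ifi44 on 18, of which 12 were in 1 cell.

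**Figure D3:**
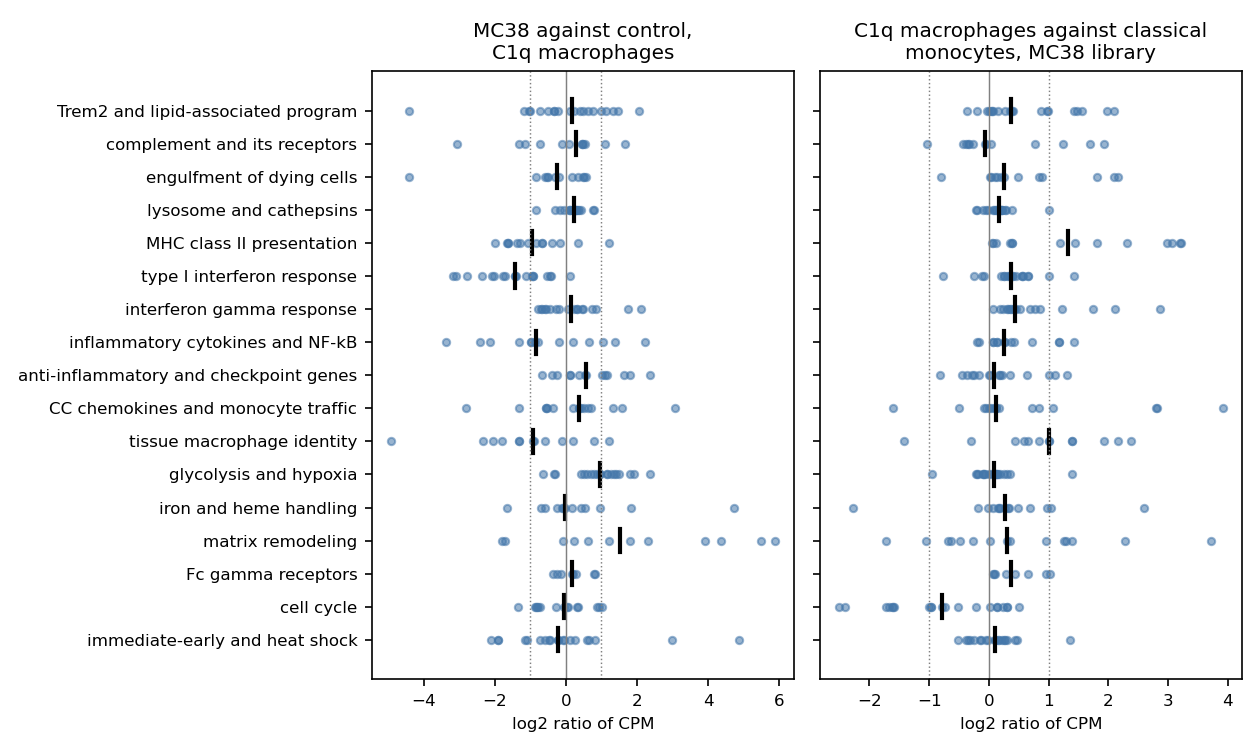
Log2 ratio of CPM (horizontal axis) for each gene with at least 50 UMIs, 1 point a gene, in the 17 lists, with the list median as a bar and dotted lines at 2-fold. Left, MC38 against control C1q macrophages; right, C1q macrophages against classical monocytes of the MC38 library. Genes at 0 UMIs are drawn at the bound given by 3 UMIs. The type I interferon list lies mostly left of 0 on the left, with a median of -1.43, and the class II list right of 0 on the right, with a median of 1.32.

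Within the MC38 library, where both classes are of 1 preparation, the C1q macrophages were set against Kupffer cells over 9447 genes, of which 1.96% were at least 2-fold higher and 8.4% at least 2-fold lower. Kupffer markers outside the rule were lower for 14 of 16 and higher for 0, with a median log2 ratio of -6.37 and sums of 352 CPM in the C1q macrophages and 7613 CPM in the Kupffer cells. Marco, a scavenger receptor, had a log2 ratio of -9.45 (95% interval -9.95 to -9.00), Cd5l one of -8.56 (95% interval -8.93 to -8.22), and Cd163, the hemoglobin scavenger receptor, one of -8.78 (95% interval -10.24 to -7.65). Higher in the C1q macrophages were Ly6i, Ccr2, Tppp3, Cx3cr1, S100a4 and S100a6. Ccr2 was at 1399 against 546 CPM, and Cx3cr1 at 158 against 55 CPM. Class II genes were not higher: 0 of 14 passed 2-fold above and 3 below, and H2-Ab1 was at 1874 and 1699 CPM. Lipid-associated genes were lower for 9 of 20 and higher for 0, with Lpl at 67.6 and 488 CPM. Kupffer cells also carried more of the erythroid (6309 against 720.2 CPM) and hepatocyte markers (1977 against 687 CPM). In the control library Kupffer markers were lower for 12 of 14, with 1.36% of 3814 genes at least 2-fold higher and 6.4% lower, and a smaller median of -3.64. The Kupffer cell genes Clec4f, Vsig4 and Timd4 chose one class and were barred from the other. The counts of further Kupffer markers therefore describe the rules in part, in both libraries. Limits on Lyz2, Arg1, Spp1 and Cxcl10 held for the C1q macrophages alone, and their part in the other differences was not tested.

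Against MC38 classical monocytes, 2.6% of 10376 genes were at least 2-fold higher in the C1q macrophages and 1.48% at least 2-fold lower. Class II genes were higher for 8 of 14 and lower for 0, with a median log2 ratio of 1.32. H2-Aa had the interval farthest from equality, at 1789.7 against 192 CPM and a log2 ratio of 3.22 (95% interval 3.17 to 3.27), followed by H2-Eb1, H2-Ab1 and Cd74. B cell markers were alike in sum, at 112 and 99.7 CPM, and 0 of 9 were higher. Pltp, the phospholipid transfer protein, was at 97.1 against 12 CPM, and Cxcl16, a membrane-bound chemokine and scavenger receptor, at 118 against 16.9 CPM. Of the tissue macrophage identity genes 7 of 13 were higher and 1 lower, with Mertk at 24.6 against 5.46 CPM. The engulfment receptor Axl was at 195 against 55.4 CPM.

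On the lower side were classical monocyte markers, 7 of 11 lower and 0 higher, and cell cycle genes, 8 of 21 lower. Ccnb2, a mitotic cyclin, was at 4.9 against 26 CPM, a log2 ratio of -2.41 (95% interval -2.83 to -2.01), and Lcn2 at 225 against 1083 CPM. Neutrophil markers moved with these, at 1071 CPM in the C1q macrophages and 7702 CPM in monocytes, and their part in the result was not tested. In the control library class II genes were higher for 9 of 13, with a median of 1.16, and classical monocyte markers lower for 9 of 11, with 4.18% of 7873 genes higher and 8.6% lower. These monocytes were chosen with Ly6c2 at 3 UMIs or more and C1q at 0, so the counts of classical monocyte markers describe the rule in part and are read no further. Without the Ly6c2 limit, cells with no C1q that met every other condition had H2-Ab1 at 396 CPM in MC38 and 1522 CPM in control. The C1q macrophages stood above both, at 1874 and 5937 CPM. With the limit MC38 monocytes had 225 CPM, so the class II counts depend in part on it too.

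Against MC38 Arg1-high macrophages, 1.06% of 9932 genes were at least 2-fold higher in the C1q macrophages and 7.6% lower. Arg1 set the classes apart by rule, and only the C1q macrophages had limits on C1q, Spp1 and Cxcl10. The part of these limits in the differences that follow was not tested. Class II genes were higher for 6 of 14 and lower for 1, with Ciita at 84 against 26 CPM. Hpgd, a prostaglandin-degrading enzyme, was at 65.7 against 15.3 CPM, a log2 ratio of 2.10 (95% interval 1.80 to 2.41), and Treml4, a nonclassical monocyte receptor, at 48.7 against 12.9 CPM. Adgre4, Tmem176a and Tmem176b completed the highest 6. Glycolysis genes were lower for 7 of 21 and higher for 0, with Pgam1 at 363 against 717 CPM, and matrix genes lower for 9 of 19. Hepatocyte markers stood at 2721 CPM in the Arg1-high cells and 687 CPM in the C1q macrophages, and epithelial and tumor cell markers at 145 and 26.9 CPM. The part of these markers in the result was not tested. With called doublets removed, 184 genes were at least 2-fold higher in place of 105.

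Among the C1q macrophages themselves, cells were placed in 4 ranges of C1q UMIs per 10000, cut at 9.69, 21.0 and 45.6. The MC38 cells split into 222, 230, 230 and 223, and the control cells into 13, 4, 5 and 12, too few for values per range. Since C1q chose the cells, what follows is a description with no test. In MC38 the median depth fell from 12676 UMIs in the lowest range to 11573 in the highest, and the mitochondrial share was 5.07% and 5.36%. Between the highest and the lowest range 1.56% of 7616 genes were at least 2-fold higher and 1.76% at least 2-fold lower.

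Cells with more C1q held more class II, lipid and macrophage transcripts and fewer classical monocyte ones. The lowest MC38 range, 1.58 to 9.67 C1q UMIs per 10000, lay below the 95th percentile of MC38 T cells, 9.92. Whether stray C1q had placed monocytes in that range was not tested. Class II genes were higher in the highest range for 6 of 12, lipid-associated genes for 6 of 18, and tissue macrophage identity genes for 5 of 12, with 0, 0 and 1 lower. H2-Ab1 rose through 823, 1249, 2006 and 3659 CPM, a log2 ratio of highest to lowest of 2.15 (2.09 to 2.22). Lpl rose through 24.9, 49, 58.4 and 148 CPM, and Apoe through 4979, 5865, 7286 and 10452 CPM. Axl went from 118 to 306 CPM, Mertk from 12.6 to 44.9 CPM, C3ar1 from 82.3 to 201 CPM, and Cxcl16 from 61.4 to 219 CPM. Nr1h3, the lipid-sensing nuclear receptor LXR-alpha that is also a Kupffer cell gene, stood at 16.5, 21.4, 27.4 and 77.3 CPM, highest in the highest range. Kupffer markers were higher for 4 of the 5 with enough UMIs, with Slc40a1 at 3 UMIs in the lowest and 70 in the highest range. Cd5l and Cd163, which were not among the 5, stood at 9.05 and 0.377 CPM in the highest range.

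Classical monocyte markers were lower in the highest range for 7 of 11 and higher for 0. Ly6c2 fell through 934, 810.3, 579 and 265 CPM, a log2 ratio of -1.82 (-1.94 to -1.70). F13a1 fell through 484, 339, 213 and 169 CPM, Vcan from 260.3 to 83 CPM, Hp from 724 to 207 CPM and C3, the central complement protein, from 281 to 121 CPM. Nonclassical monocyte markers were mixed, with 1 of 8 higher and 2 lower. Cx3cr1, which is not in that list, had a log2 ratio of 0.89 (0.69 to 1.08). Ccr2 stayed nearly level, at 1446, 1461, 1388 and 1289 CPM. Trem2 was level too, at 298, 303, 301 and 274 CPM with a log2 ratio of -0.12 (-0.27 to 0.02), and it stood at 261 CPM in the 2090 MC38 cells that met every other condition with no C1q.

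Single cells were also read after thinning to 3000 UMIs, which kept 898 of the MC38 cells. Ly6c2 was present in 47.2% of cells with an H2-Ab1 UMI and 77.8% of cells without one. Against Trem2 the order was the other way, with Ly6c2 in 66.3% of Trem2-positive and 54% of Trem2-negative cells, and H2-Ab1 in 49.5% and 64.3%. As a background, 4.56% of MC38 B cells held a thinned Ly6c2 UMI and 17.5% of MC38 T cells a thinned H2-Ab1 UMI, with medians of 3041.5 and 5165 UMIs before thinning.

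**Figure D4:**
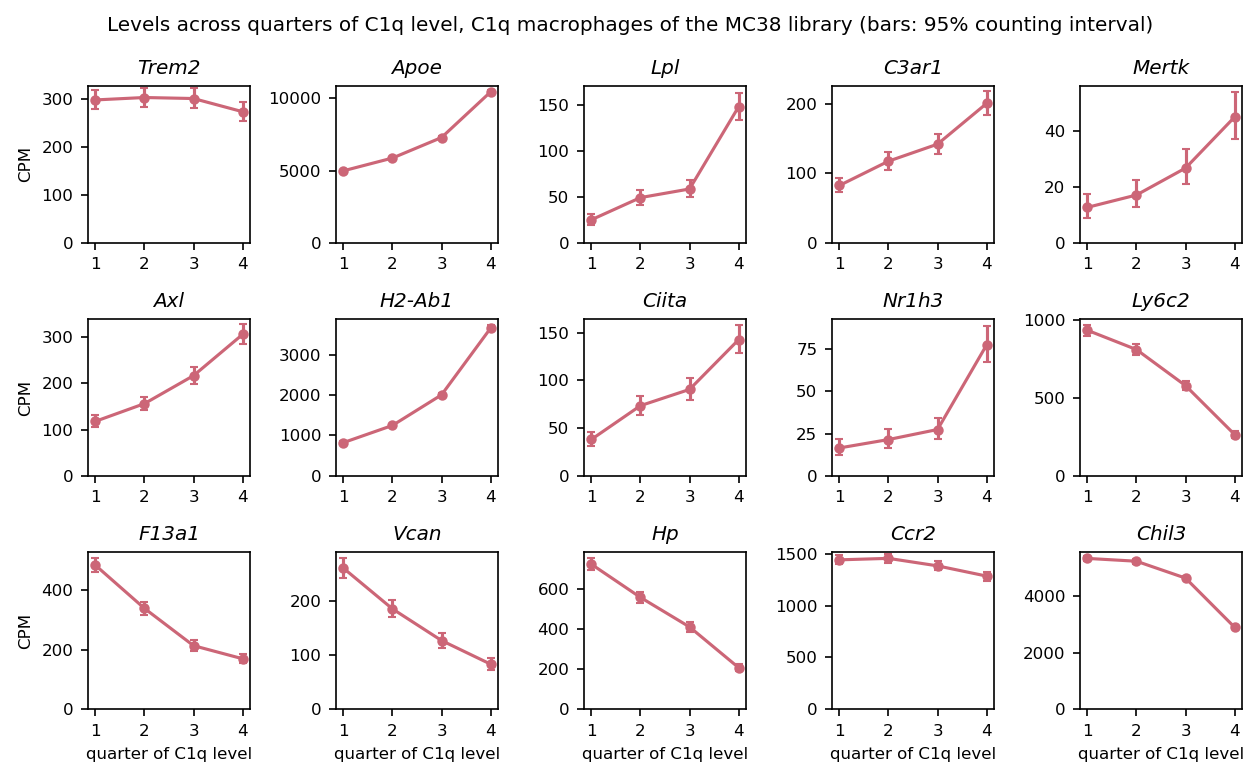
CPM (vertical axis, from 0) of 15 genes over 4 ranges of C1q level (horizontal axis, 1 lowest to 4 highest) in the MC38 C1q macrophages, with 95% counting intervals as bars. H2-Ab1 climbs from 823 to 3659 CPM and Ly6c2 falls from 934 to 265 CPM, while Trem2 stays between 274 and 303 CPM.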

How the data were processed

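The 2 libraries were 10x Genomics 5′ libraries of liver immune cells, 1 per group, each from 3 pooled mice, so no group has replicates. The deposited matrices hold raw UMI counts per gene and barcode for 28692 genes. Per the submitters' processing notes, GRCm38.p6, R 3.6.0, Seurat 2.3.4, STAR, Cell Ranger 2.2 and bcl2fastq were used, with the step each served not given in the sources used here, and the software version in the matrix header is 3.0.2, per the file headers. No file used here gave a cell annotation or said that doublets had been removed.

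A barcode was kept when it had 200 genes or more and no more than 20% of its UMIs from the 13 mitochondrial genes, and classes were set by the rules in the text. The members and the gene lists were chosen with earlier results of these data known. UMIs were summed per class and library and scaled to a common total (CPM). A gene was called at 2-fold or more where both groups together had at least 50 UMIs. Ratios have exact conditional Poisson 95% intervals and shares exact binomial (Clopper-Pearson) 95% intervals, which cover counting error only. A count of 0 was set to a floor of 3 UMIs over the group, the upper limit such a count allows. The top 12 genes in each direction between libraries and the top 6 between classes of the MC38 library were named by the interval end nearest equality. These had at least 20 CPM and detection in at least 10% of cells in the group where they were higher, at least 10% of their highest level in any class of 20 or more cells (a guard against free RNA), and were no markers of other lineages. Up to 2 genes per list and direction were named by the same rank among those with at least 50 UMIs, without these minimums. Further list genes were named as examples, or for their role, after their values were seen. For shares of cells with a UMI, cells were thinned to 3000 UMIs and shallower cells left out. Doublets were called with Scrublet (scanpy 1.11.5) per library and kept. The calculations used Python 3.11.15, numpy 2.4.6, scipy 1.17.1, pandas 2.3.3 and matplotlib 3.10.9 and were tested on simulated counts. Other limits, doublet removal, scaling, thinning and count minimums were tried as alternatives. Some genes that the naming rule picked are not reported here.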

Additional observations from a re-analysis of the deposited data

How the results depend on the processing

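No paired analysis was possible because each group has 1 library and no replicate numbers are shared, and no replicate could be left out. The share of C1q macrophages among MC38 barcodes, 5.22%, was 6.47% with the mitochondrial limit at 10%, 5.90% with at least 500 genes, 4.23% with at least 10 C1q UMIs, 4.87% with Cd5l and Marco at 0 as well, and 4.79% without cells carrying markers of other lineages. In every one of these it was above the control share. Counts of genes past 2-fold moved with the limits, and which genes entered the test moved with them.

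Between MC38 and control the counts were 939 higher and 699 lower. They were 1460 lower with the mitochondrial limit at 10%, which left 16 control cells, 578 and 210 with at least 200 UMIs, and 1739 lower with 1 UMI in each group. Against Kupffer cells in MC38 (185 and 794) they were 119 higher at the 10% limit, 996 higher as a mean over cells, 356 lower when thinned, 84 and 305 with 200 UMIs, and 420 and 2648 with 1 UMI. Against control Kupffer cells (52 and 244) they were 113 lower at the 10% limit, 33 and 146 without other lineages, 279 higher as a mean over cells, 29 and 72 when thinned, 5 and 44 with 200 UMIs, and 815 and 1234 with 1 UMI. Against MC38 monocytes (270 and 154) they were 147 higher when thinned, 136 and 83 with 200 UMIs, and 1001 and 579 with 1 UMI. Against control monocytes (329 and 677) they were 501 higher as a mean over cells, 66 and 235 with 200 UMIs, and 1453 higher with 1 UMI. Against Arg1-high macrophages (105 and 755) they were 184 higher without called doublets, 306 lower when thinned, 39 and 310 with 200 UMIs, and 431 and 1992 with 1 UMI.

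Of 972 values of named genes recomputed, 963 kept their sign. Those of called genes that reversed were Cd63, from -1.18 to 0.59 at the 10% mitochondrial limit and 0.53 with Cd5l and Marco at 0, and C4b, from -3.06 to 1.56 without called doublets. The cause was not tested. The 34 control cells limit every contrast between libraries. Over the alternatives the median log2 ratio of MC38 to control ran from -1.73 to -0.96 for the type I interferon list, from -1.25 to -0.76 for class II, from 0.91 to 1.18 for glycolysis and from 0.73 to 2.66 for matrix genes. The medians of 10 of the 17 lists changed sign in at least 1 alternative: chemokines, Trem2 and lipid, cell cycle, complement, engulfment, immediate-early, NF-kB, interferon gamma, iron and lysosome.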

Other observations

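C1q was also present in the Arg1-high macrophages of the MC38 library. Of these 456 cells, 200 had at least 5 C1q UMIs, and their summed C1q level was 1787 CPM over all 456, against 3178 CPM in the C1q macrophages. Scrublet called 41.0% of the 456 as doublets, and the part of doublets in this value was not tested.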
